A study of Caenorhabditis elegans with 2 samples.

Results

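The genes described here build and remove methylation at lysine 4 of histone H3 (H3K4) in *C. elegans*. They are 8 of the 20191 genes in the count files, found by gene symbol: the methyltransferases *set-2* and *set-16*, the shared subunits *wdr-5.1*, *ash-2*, *rbbp-5* and *dpy-30*, the CpG-binding subunit *cfp-1*, and the demethylase *rbr-2*. COMPASS is the complex in which a methyltransferase of the SET1 or MLL type joins a core of WDR5, ASH2, RBBP5 and DPY30 proteins and adds methyl groups to H3K4, a mark of active promoters and enhancers. RBR-2 belongs to the KDM5 family, which takes methyl groups off trimethylated H3K4. In *C. elegans* both activities are known from work on germline maintenance, on transgenerational inheritance and on lifespan. The embryos studied were mutant for SPR-5, the LSD1-type enzyme that removes mono- and dimethylation from H3K4, and for MET-2, a methyltransferase for H3K9, so the 8 genes encode other machinery for the mark that SPR-5 acts on.

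Single cells were profiled from synchronized embryos grown to about the 100-200 cell stage. One library came from the F1 generation of *spr-5; met-2* animals, homozygous for the allele b101 of *spr-5* on chromosome I and the allele n4256 of *met-2* on chromosome III, and 1 library from Wild Type (N2) embryos, each made from pooled embryos. The alleles are carried in every tissue and, in the mothers, in the germline as well. There is 1 library per genotype and so no replicate check: no test was run on any difference below, the intervals are 95% intervals for counting error only, and genotype, library and depth cannot be told apart. The mix of cells also differed, with 114 mutant and 6 Wild Type cells in a neuron-like cluster, for example. Ratios over all cells or over somatic cells therefore compare unlike mixtures.

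The cells were the barcodes with the most unique molecular identifiers (UMIs, each counting 1 captured mRNA 3' end), 686 in *spr-5; met-2* and 219 in Wild Type. They held 732058 UMIs in the mutants and 1013190 in Wild Type, with medians of 726.5 and 2086 UMIs per cell, mutants first. Levels are UMIs per 1000000 UMIs of the cells (CPM). In Wild Type, 48.6% of all UMIs came from only 18 very large barcodes, each above 10000 UMIs, and the mutants had no such barcode. Values without those 18 barcodes stand beside the results whose interval or size changes most. The 2 libraries shared 11 cell barcodes. The mutated genes themselves had 40 UMIs in *spr-5; met-2* and 83 in Wild Type for *spr-5* (ratio 0.667, interval 0.446 to 0.984, which included 1 in somatic cells, 0.475 to 1.07, and without the 18 barcodes, 0.438 to 1.10) and 20 UMIs in *spr-5; met-2* and 64 in Wild Type for *met-2* (0.433, 0.248 to 0.724), and whether the captured 3' ends lie outside the altered parts of the genes was not checked. Maternally supplied germline mRNAs (16 genes, summed) were at 1.90 times the Wild Type level in all mutant cells and at 3.12 times (2.51 to 3.89) in the somatic cells, which are those outside the germline-like cluster. Without the 18 barcodes these ratios were 1.42 and 2.44. The germline-like cluster held 16 mutant and 4 Wild Type cells. With finer clustering (Leiden resolution 1.5) it held 45 mutant and 4 Wild Type cells. Some mutant cells counted here as somatic were therefore germline-like at that setting, for which the maternal ratio was not computed. Median mitochondrial content was 1.99% in the mutant cells and 0.731% in Wild Type cells. The part of these differences in the results below was not tested.

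All 8 genes were detected in both libraries, each with at least 20 UMIs. Their summed level was 1783 CPM (1687 to 1882) in *spr-5; met-2* cells, from 1305 UMIs, and 1535 CPM (1459 to 1613) in Wild Type cells, from 1555 UMIs, a ratio of 1.162 (1.078 to 1.251). The sum hid opposite differences within the group. In *spr-5; met-2* cells *rbr-2* and *set-2* were higher and *dpy-30* was lower. Of the 8 genes, 4 had an interval wholly above 1, namely *rbr-2*, *set-2*, *ash-2* and *set-16*, where the same held for 34% of the 6839 genes with at least 20 UMIs. One of the 8, *dpy-30*, had an interval wholly below 1, where the same held for 13.7% of genes. In somatic cells 3 of the 8 lay above 1 and 1 below, against 33.6% and 13.7% of genes, and without the 18 largest barcodes 3 lay above and 1 below, against 31.1% and 11.7%. The median log2 ratio was 0.20 over the 8 genes and 0.27 over all genes, in all cells and in somatic cells alike. Without the 18 largest barcodes the order was reversed, at 0.35 over the 8 genes and 0.31 over all genes. A small count was added to each gene for the medians over all genes and not for those over the 8. The group as a whole thus lay near the general shift, on a side that depended on those barcodes. Scaling both libraries by the median of gene ratios instead lowers each log2 ratio by 0.27. The sum then turned to 0.966 (0.897 to 1.04), *set-16* turned to 0.980, and 22.6% of genes lay above 1 and 23% below. *rbr-2* (1.56, 1.27 to 1.92) and *set-2* (1.37, 1.10 to 1.70) stayed above 1 and *dpy-30* (0.724, 0.631 to 0.831) stayed below under that scaling. The interval of *ash-2* then included 1 (1.20, 0.895 to 1.61) and that of *rbbp-5* lay below 1 (0.630, 0.440 to 0.893), so that 2 of the 8 genes lay above 1 and 2 below.

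**Figure D1:**
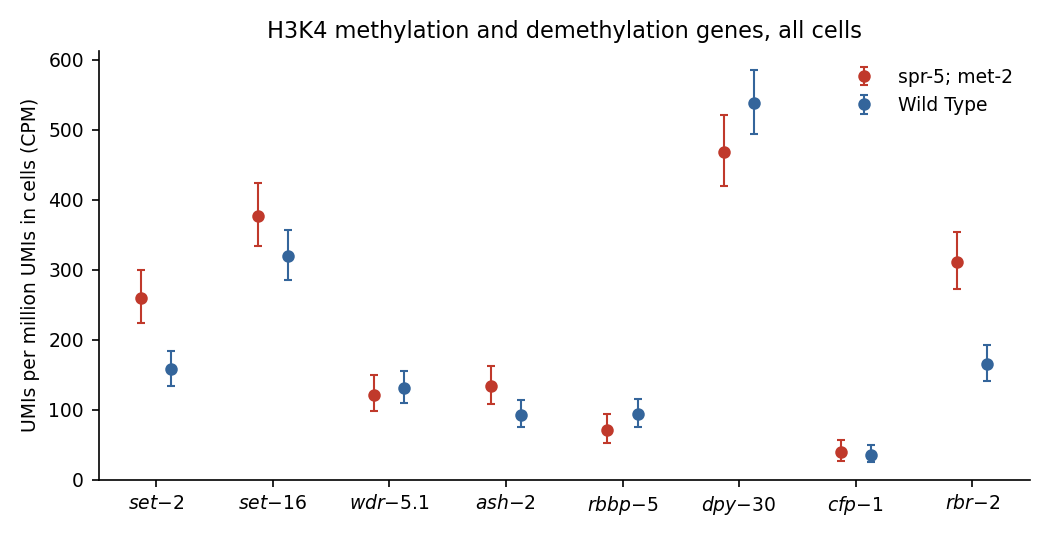
Level of each gene in CPM (linear axis) in *spr-5; met-2* (red, left of each pair, 686 cells) and Wild Type (blue, right, 219 cells), with exact Poisson 95% intervals for counting error. The intervals of *set-2* and *rbr-2* lie apart, at 259.5 and 157.9 CPM and at 311.5 and 165.8 CPM, mutants first, while those of the other 6 genes overlap. The share of all genes whose intervals lie apart in this way was not counted.

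The catalytic subunits were counted first. *set-2*, on chromosome III (4922427 to 4930204, minus strand, build ce11), encodes the SET1-type methyltransferase that gives the embryo most of its H3K4 trimethylation. It had 190 UMIs and 259.5 CPM (223.9 to 299.2) in *spr-5; met-2* cells, against 160 UMIs and 157.9 CPM (134.4 to 184.4) in Wild Type cells. The ratio was 1.64 (1.325 to 2.04), and 1.76 (1.34 to 2.32) without the largest Wild Type barcodes. *set-16*, on the same chromosome (III, 13643916 to 13656637, plus strand), encodes the MLL3/4-type methyltransferase and was the second most abundant of the 8. It had 276 UMIs and 377 CPM in the mutants and 324 UMIs and 319.8 CPM in Wild Type. Its ratio of 1.18 had an interval that began at 1.0 and ended at 1.39, and the interval included 1 in somatic cells (0.999 to 1.39) and without the largest Wild Type barcodes (0.961 to 1.425). Together the methyltransferase genes reached 1.33 times (1.17 to 1.52) the Wild Type level, at 636.6 CPM in the mutants and 477.7 CPM in Wild Type, and the interval included 1 under median-of-ratios scaling (1.11, 0.974 to 1.26). *set-2* was also higher relative to *set-16*. There were 0.688 *set-2* UMIs for each *set-16* UMI in *spr-5; met-2* and 0.494 in Wild Type, a quotient of 1.39 (1.06 to 1.83) that does not depend on how the libraries are scaled.

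As a sum the shared core had a lower ratio than the catalytic genes, but its members went different ways. *dpy-30* held 545 of the 867 Wild Type UMIs of the core, while *ash-2* had a ratio above 1, as *set-2* did. The 4 core genes summed to 795 CPM in *spr-5; met-2* and 855.7 CPM in Wild Type, with a ratio of 0.929 (0.835 to 1.033) that included 1 and lay below 1 under median-of-ratios scaling (0.773, 0.694 to 0.859). *dpy-30*, on chromosome V (12191519 to 12192385, plus strand), encodes the small docking subunit that also serves the X chromosome dosage compensation complex. It was the most abundant of the 8, with 343 UMIs and 468.5 CPM (420.3 to 520.8) in the mutants and 545 UMIs and 537.9 CPM (493.7 to 585) in Wild Type. Its ratio of 0.871 had an interval of 0.759 to 0.999. The ratio was 0.767 (0.657 to 0.897) without the largest Wild Type barcodes and 0.665 with every cell weighted equally, and with cells set at 500 UMIs or more the interval included 1 (0.882, 0.766 to 1.01). *wdr-5.1*, the main WDR5 gene of the worm (III, 3705285 to 3706784), had 89 UMIs and 121.6 CPM in the mutants and 133 UMIs and 131.3 CPM in Wild Type. Its ratio was 0.926 with an interval of 0.70 to 1.22. *rbbp-5*, which encodes another of the beta-propeller subunits (II, 6097830 to 6099645), had 52 UMIs and 71.0 CPM in the mutants and 95 UMIs and 93.8 CPM in Wild Type, and its ratio of 0.758 also had an interval that included 1 (0.530 to 1.07).

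*ash-2* was the core gene whose value depended most on the large barcodes. It lies on chromosome II (11979838 to 11989050) and encodes the subunit that, with RBBP-5, activates the SET domain. In all cells it had 98 UMIs and 133.9 CPM in *spr-5; met-2* and 94 UMIs and 92.8 CPM in Wild Type, a ratio of 1.44 (1.08 to 1.94). Without the 18 largest Wild Type barcodes, Wild Type kept 32 of its *ash-2* UMIs, at 61.4 CPM, and the ratio became 2.18 (1.45 to 3.36). *cfp-1*, whose CXXC zinc finger protein brings the SET-2 complex to CpG-rich promoters (IV, 14077435 to 14083568), was the rarest of the 8. It had 29 UMIs and 39.6 CPM in the mutants and 36 UMIs and 35.5 CPM in Wild Type, and the interval of its ratio, 0.659 to 1.87 around 1.115, leaves room for a difference in either direction. Summed over the 7 COMPASS subunits the level was 1471 CPM in *spr-5; met-2* and 1369 CPM in Wild Type, a ratio of 1.075 with an interval of 0.992 to 1.165, and median-of-ratios scaling put it below 1 (0.894, 0.825 to 0.969).

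Over all cells the demethylase gene had the highest ratio of the 8, a place that *ash-2* took without the largest Wild Type barcodes (2.18) and with every cell weighted equally (2.33). *rbr-2* (IV, 10920070 to 10926817, plus strand) had 228 UMIs and 311.5 CPM (272.3 to 354.6) in *spr-5; met-2* cells and 168 UMIs and 165.8 CPM (141.7 to 192.9) in Wild Type cells. The ratio was 1.88 (1.53 to 2.31) in all cells, 1.89 (1.53 to 2.34) in somatic cells and 1.98 (1.53 to 2.58) without the largest Wild Type barcodes. Over its 8 alternative settings in all cells the ratio ranged between 1.56 and 2.765, with the highest for 500 UMIs drawn from each cell. The last exon of *rbr-2* shares 98 bases at its 3' end with *dnc-1* on the opposite strand. The kit marks strand, but the counting setting is not given in the sources used here. At their 3' ends *ash-2* shares 27 exon bases with Y17G7B.3 on the same strand, *dpy-30* 7 bases with *rnp-1* and *cfp-1* 1 base with F52B11.2. Reads in those bases cannot be assigned to 1 gene with certainty.

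**Figure D2:**
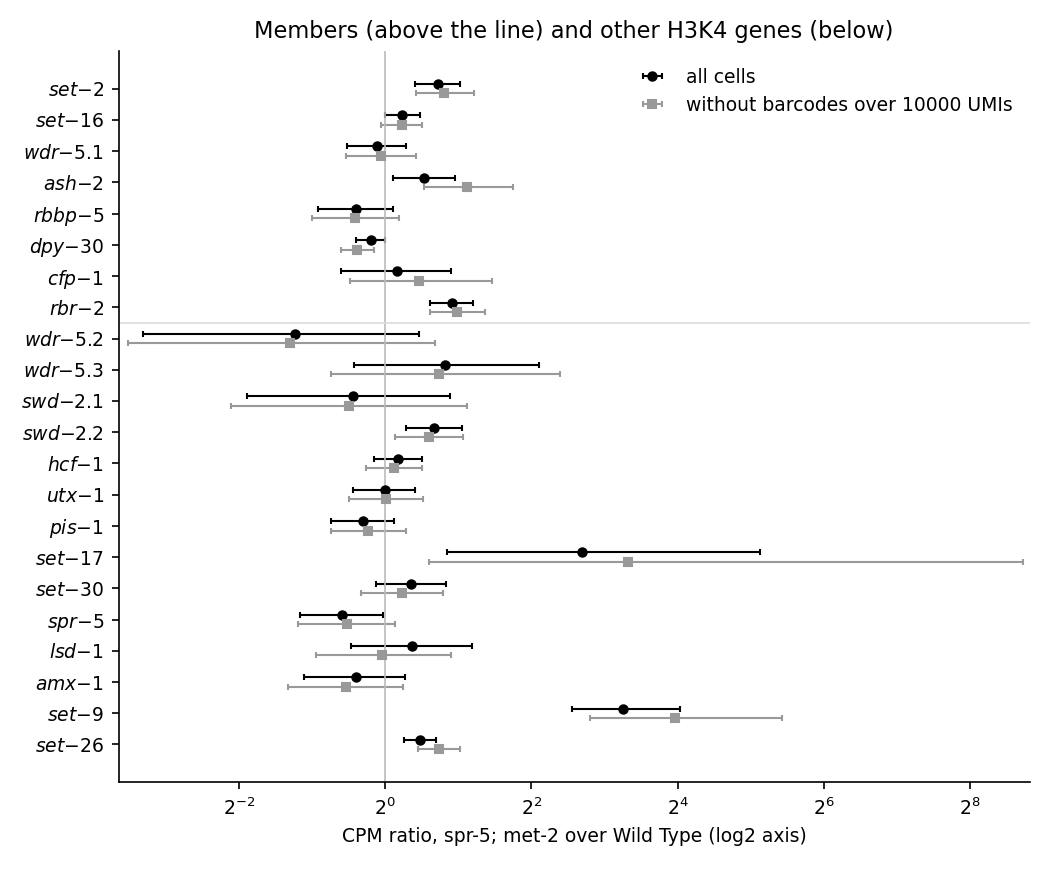
Ratio of CPM, *spr-5; met-2* over Wild Type, on a log2 axis for the 8 genes (above the line) and 14 other H3K4 genes (below the line), with exact conditional binomial 95% intervals for counting error, in all cells (black circles) and without the 18 Wild Type barcodes over 10000 UMIs (grey squares). *rbr-2* and *set-2* lie above 1 and *dpy-30* lies below 1 in both, *ash-2* moves between 1.44 and 2.18, and *set-9* stands farthest right among the genes with narrow intervals.

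Because every CPM ratio moves with the scaling, each gene was also expressed as a share of the UMIs of the 8 genes, which needs none. *rbr-2* took 17.5% (15.4 to 19.6) of these UMIs in *spr-5; met-2* cells and 10.8% (9.30 to 12.5) in Wild Type cells. *set-2* took 14.6% (12.7 to 16.6) in the mutants and 10.3% (8.82 to 11.9) in Wild Type. *dpy-30* went the other way, with 26.3% (23.9 to 28.8) in the mutants and 35.1% (32.7 to 37.5) in Wild Type. For these 3 genes the intervals of the genotypes did not overlap, and for the other 5 they did. These shares are taken within the 8 genes, so no share over all genes stands beside that count. Without the largest Wild Type barcodes the intervals of *ash-2* also lay apart, at 7.51% (6.14 to 9.08) in the mutants and 3.97% (2.73 to 5.55) in Wild Type. *set-16* kept close shares, 21.1% (18.96 to 23.5) in the mutants and 20.8% (18.8 to 22.9) in Wild Type. For each UMI of the 7 COMPASS subunits there were 0.212 UMIs of *rbr-2* in *spr-5; met-2* and 0.121 in Wild Type, a quotient of 1.75 (1.40 to 2.18). The quotient for *set-2* over *dpy-30* was 1.89 (1.46 to 2.44), and the one for the methyltransferases over the shared core was 1.43 (1.21 to 1.70). The latter is a quotient of sums that not every gene followed. *set-16* kept its share, and the core gene *ash-2* took 7.51% in the mutants and 6.05% in Wild Type. Between *rbr-2* and *set-2*, in contrast, the quotient was 1.14 with an interval of 0.846 to 1.54, so that no difference between the demethylase gene and the SET1-type gene could be seen at this depth. The same quotients without the largest Wild Type barcodes were 1.87 for *rbr-2* over the COMPASS subunits, 2.29 for *set-2* over *dpy-30* and 1.52 for the methyltransferases over the core.

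**Figure D3:**
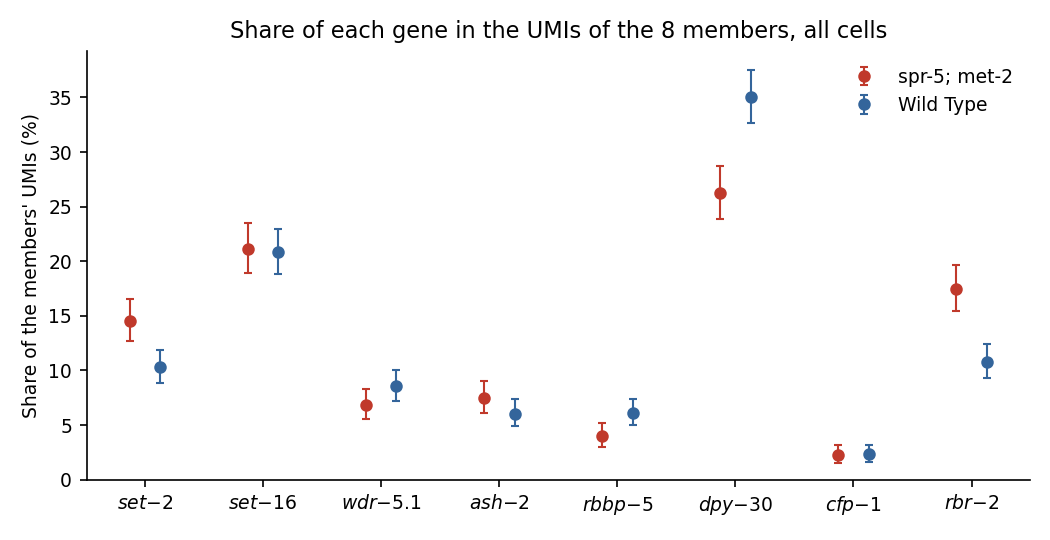
Share of each gene in the UMIs of the 8 genes (percent, linear axis) in *spr-5; met-2* (red, left, 1305 UMIs) and Wild Type (blue, right, 1555 UMIs), with exact binomial 95% intervals. *dpy-30* holds 26.3% and 35.1%, *rbr-2* 17.5% and 10.8%, and *set-2* 14.6% and 10.3%, mutants first.

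The order of the 8 levels was much the same in the 2 genotypes. A 3' UMI counts an mRNA once whatever its length, so these CPM values were not divided by gene length. In *spr-5; met-2* the order was *dpy-30*, *set-16*, *rbr-2*, *set-2*, *ash-2*, *wdr-5.1*, *rbbp-5* and *cfp-1*. Neighbours with overlapping intervals in that order were *dpy-30* and *set-16*, *set-16* and *rbr-2*, *rbr-2* and *set-2*, *ash-2* and *wdr-5.1*, and *rbbp-5* and *cfp-1*. In Wild Type *dpy-30* stood clear of *set-16*, and *set-16* stood clear of *rbr-2* and *set-2*, whose intervals overlapped each other. Below them *set-2* and *wdr-5.1*, *wdr-5.1* and *rbbp-5*, and *rbbp-5* and *ash-2* overlapped, and *cfp-1* stood apart as the lowest. Thus the intervals of *rbr-2* and *set-16* overlapped in the mutants, at 311.5 and 377 CPM, and lay apart in Wild Type, at 165.8 and 319.8 CPM.

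The cells were grouped into 14 clusters without the use of any H3K4 gene, 9 of them named from tissue markers. Only 5 clusters had 15 or more cells from both genotypes, and the 9 others held at most 6 Wild Type cells each. The clusters compared were a hypodermis-like cluster with 12 hypodermal markers enriched, among them *elt-3* and *dpy-7* (76 mutant and 28 Wild Type cells), a body wall muscle-like cluster with 13 markers enriched, among them *hlh-1* and *myo-3* (77 and 39 cells, mutants first), an other mesoderm-like cluster led by genes such as *cup-4* and *lgc-26* (77 mutant and 19 Wild Type cells), and clusters 4 and 10, which stayed without a name. Cluster 4 was led by *eyg-1* and *ceh-5* (79 mutant and 63 Wild Type cells) and cluster 10 by T08H10.1 and *spp-10* (29 mutant and 47 Wild Type cells). The name of the other mesoderm-like cluster is weak. At Leiden resolution 1.5 its markers *cup-4* and *lgc-26* led a cluster of 12 mutant cells and 1 Wild Type cell. At resolution 0.5 they led 1 of 12 mutant and 0 Wild Type cells. The name may therefore not hold for most cells of that cluster, those of Wild Type above all. The largest Wild Type barcodes fell mostly in 2 of the 5, with 9 in the hypodermis-like cluster and 8 in cluster 10.

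Summed over the 8 genes, no compared cluster had a ratio whose interval left out 1. The ratio was 0.997 (0.819 to 1.21) in the hypodermis-like cluster, 0.865 (0.639 to 1.17) in the body wall muscle-like cluster, 1.175 (0.877 to 1.585) in the other mesoderm-like cluster, 1.185 (0.995 to 1.41) in cluster 4 and 1.19 (0.964 to 1.46) in cluster 10. Levels differed more between clusters than between genotypes. In *spr-5; met-2* the sum was 2219 CPM in cluster 4, 1992 CPM in cluster 10, 1804 CPM in the other mesoderm-like, 1365 CPM in the hypodermis-like and 1123 CPM in the body wall muscle-like cluster. Wild Type gave the same order, with 1873 CPM in cluster 4, 1671 CPM in cluster 10, 1535 CPM in the other mesoderm-like, 1369 CPM in the hypodermis-like and 1299 CPM in the body wall muscle-like cluster. Each neighbour in these orders overlapped the next, and in both genotypes cluster 4 lay above the hypodermis-like and body wall muscle-like clusters without overlap. Among all 14 mutant clusters the neuron-like cluster (114 cells) and the ciliated neuron-like cluster (31 cells) stood near the top, at 2103 and 2115 CPM, the intestine-like cluster (23 cells) at 1548 CPM, and the 3 body wall muscle-like clusters at the bottom, between 1038 and 1123 CPM.

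*rbr-2* was higher in *spr-5; met-2* in each of the 5 clusters. It had 24 UMIs (235.6 CPM) in mutant and 58 UMIs (166.4 CPM) in Wild Type hypodermis-like cells, a ratio of 1.42 (0.841 to 2.315). In body wall muscle-like cells it had 21 UMIs (271 CPM) in the mutants and 11 UMIs (150.4 CPM) in Wild Type, a ratio of 1.80 (0.831 to 4.14). The other mesoderm-like cluster had 17 UMIs (241.5 CPM) in the mutants and 6 UMIs (122.8 CPM) in Wild Type, a ratio of 1.97 (0.740 to 6.09). The intervals of these 3 included 1. In cluster 4 the gene had 47 UMIs (427.4 CPM) in the mutants and 29 UMIs (190.6 CPM) in Wild Type, a ratio of 2.24 (1.38 to 3.695). In cluster 10 it had 20 UMIs (346.4 CPM) in the mutants and 45 UMIs (151.9 CPM) in Wild Type, a ratio of 2.28 (1.275 to 3.94). The intervals of the last 2 lay above 1. All 5 intervals overlapped one another, so a difference in size between clusters was not detectable at this depth. As a share of the UMIs of the 8 genes, *rbr-2* was also higher in the mutants in every compared cluster, between 13.4% and 24.1% in *spr-5; met-2* and between 8% and 12.2% in Wild Type. Ratios above 1 in all 5 clusters were not particular to *rbr-2*, since *ash-2*, *set-9* and *set-26* had them too. The share of all genes with such ratios was not counted.

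**Figure D4:**
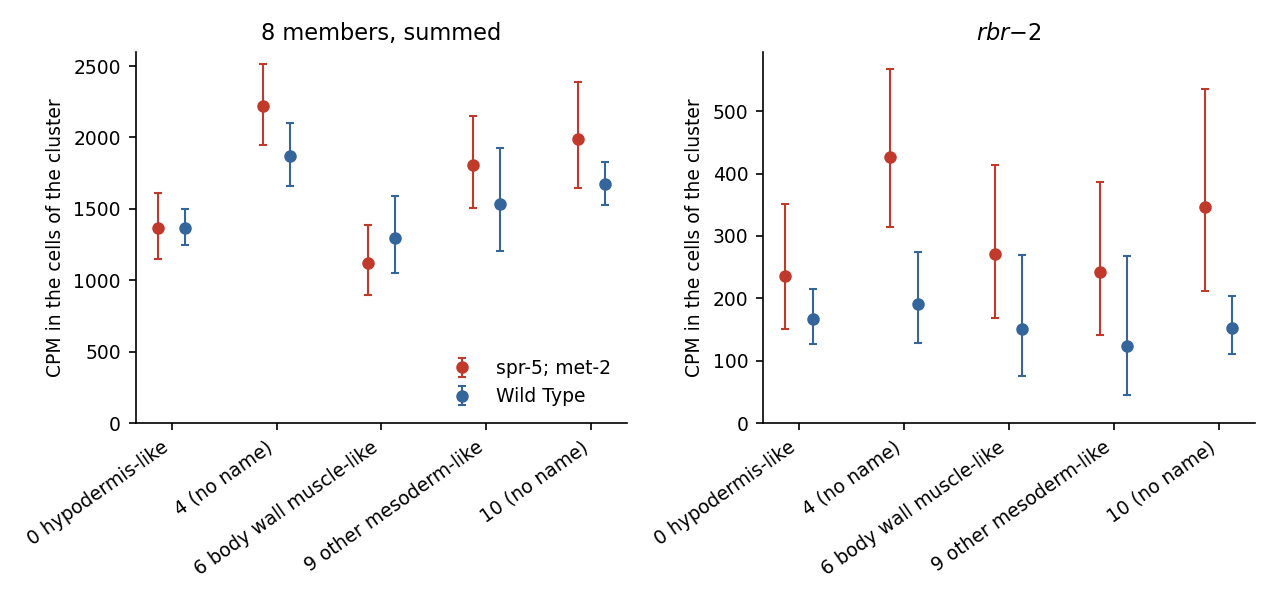
Level in CPM (linear axes) of the 8 genes summed (left panel) and of *rbr-2* (right panel) in the 5 clusters that could be compared, for *spr-5; met-2* (red, left of each pair) and Wild Type (blue, right), with exact Poisson 95% intervals. The summed levels overlap between genotypes in each cluster, while the *rbr-2* points of the mutants, 235.6 to 427.4 CPM, all lie above the Wild Type points, 122.8 to 190.6 CPM.

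*set-2* was less even. It was higher in the mutants in 4 of the 5 clusters, with 312.6 CPM in mutant and 122.8 CPM in Wild Type other mesoderm-like cells (22 and 6 UMIs, ratio 2.545, 1.0 to 7.67), 309.2 and 197.2 CPM in cluster 4 (ratio 1.57, 0.932 to 2.65), and ratios of 1.23 in the hypodermis-like cluster and 1.26 in cluster 10. Without the largest Wild Type barcodes the ratio in cluster 10 was 2.29 (0.862 to 6.47). In body wall muscle-like cells there were 3 UMIs in the mutants and 10 in Wild Type, a ratio of 0.283 with an interval of 0.0501 to 1.10. That interval and the one of the other mesoderm-like cluster overlapped only between 1.0 and 1.10, and the difference between clusters was not tested. With the 5 clusters at equal weights the methyltransferase ratio was 1.11, against 1.32 over all somatic cells. *set-2* was then at 1.365, against 1.62, and *set-16* at 0.999, against 1.18, while *rbr-2* was at 1.95, against 1.89.

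*dpy-30* was lower in the mutants in the hypodermis-like cluster, with 30 UMIs (294.6 CPM) in the mutants and 156 UMIs (447.6 CPM) in Wild Type, a ratio of 0.658 (0.430 to 0.977). Without the 9 largest Wild Type barcodes of that cluster the ratio was 0.659 and its interval included 1 (0.395 to 1.09). *dpy-30* was also lower in the body wall muscle-like cluster, with 24 UMIs (309.7 CPM) in the mutants and 40 UMIs (546.8 CPM) in Wild Type, a ratio of 0.566 (0.327 to 0.963). In the other 3 clusters the ratio lay between 0.981 and 1.14 and the intervals included 1. *ash-2* had ratios above 1 in all 5 clusters, between 1.11 and 6.61, each with an interval that included 1, and the highest rested on 7 UMIs in the mutants and 1 UMI in Wild Type. Without the largest Wild Type barcodes its ratio in the hypodermis-like cluster was 3.43 (0.925 to 18.9), against 1.11 with them. *set-16* had ratios between 0.843 and 1.25 and *wdr-5.1* between 0.809 and 1.15, with every interval including 1. *rbbp-5* was at 1 UMI in mutant cells of cluster 10 and 31 UMIs in its Wild Type cells (0.166, 0.00406 to 0.993), and without the 8 largest Wild Type barcodes of that cluster the ratio was 0.382 and its interval included 1 (0.00776 to 3.86). *cfp-1* had at most 3 UMIs in any compared mutant cluster, too few for a comparison.

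In the germline-like cells, which had 7 germline markers enriched, among them *nos-2* and *pgl-1*, the counts were small. The 16 mutant cells held 31 UMIs of the 8 genes and the 4 Wild Type cells 55 UMIs, at 1958 CPM (1330 to 2779) in the mutants and 1530 CPM (1153 to 1992) in Wild Type, a ratio of 1.28 (0.796 to 2.02). *rbr-2* had 9 UMIs (568.5 CPM) in the mutants and 10 UMIs (278.2 CPM) in Wild Type, and *dpy-30* had 2 UMIs in the mutants and 10 in Wild Type. Neither interval left out 1. One of the 4 Wild Type cells was a barcode over 10000 UMIs. At Leiden resolution 1.5 the germline-like cluster held 45 mutant and 4 Wild Type cells, so its mutant cells depend on the setting.

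The share of cells with at least 1 UMI followed the depth of the cells. As counted, 69.97% of mutant cells and 88.6% of Wild Type cells had a UMI of any of the 8 genes. Drawing 500 UMIs from each cell, which left out 162 mutant cells and no Wild Type cell, gave 53.6% (49.2 to 58.0) in *spr-5; met-2* and 50.2% (43.4 to 57.0) in Wild Type. At that equal depth *rbr-2* was found in 13.9% (11.1 to 17.2) of mutant cells and 5.94% (3.20 to 9.94) of Wild Type cells, and as counted in 24.9% and 37.4%, mutants first. With 250 UMIs drawn, which kept all 686 mutant cells, the shares were 6.27% (4.57 to 8.35) in the mutants and 3.20% (1.30 to 6.48) in Wild Type, and the intervals overlapped. *dpy-30* was found in 17.7% (14.6 to 21.3) of mutant cells and 26.5% (20.8 to 32.9) of Wild Type cells at equal depth, and as counted in 31.8% of mutant and 69.9% of Wild Type cells. With 250 UMIs drawn, in a single random draw, the shares of *dpy-30* were 10.06% (7.91 to 12.6) in the mutants and 10.05% (6.40 to 14.8) in Wild Type. These intervals leave room for a difference in either direction. The full counts with every cell weighted equally, which also keep all mutant cells, gave *dpy-30* a ratio of 0.665. *set-2* was found in 9.35% of mutant and 5.94% of Wild Type cells at equal depth, with overlapping intervals. Muscle markers in hypodermis-like and neuron-like cells, which should lack them, gave a UMI in 9.08% of gene and cell pairs in the mutants and in 4.08% in Wild Type at equal depth, with a median depth before drawing of 623 UMIs in the mutants and 5049 UMIs in Wild Type (as counted, 14.2% and 25.5%, mutants first). The shares of *wdr-5.1*, *ash-2*, *rbbp-5* and *cfp-1*, at most 6.87% in the mutants and 4.57% in Wild Type, did not lie above that level beyond their intervals. The same held for *set-2* in both libraries and for *rbr-2* in Wild Type. Muscle mRNAs have their own level in free RNA, so the markers set no background level for the 8 genes. The part of free RNA, which differed between the libraries, in the shares of the 8 genes was not tested.

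RNA outside cells was taken from the barcodes of 200 UMIs or fewer, of which *spr-5; met-2* had 6636 and Wild Type 9121. Over the 8 genes the level in cells was 1.0 times (0.927 to 1.08) that of the free RNA in the mutants and 0.882 times (0.814 to 0.957) in Wild Type. *rbr-2* was the gene most enriched in mutant cells, at 311.5 CPM in cells and 179.3 CPM in free RNA, a ratio of 1.74 (1.40 to 2.16), while in Wild Type it was at 165.8 CPM in cells and 133.9 CPM in free RNA, a ratio of 1.24 (0.939 to 1.645). *set-16* was enriched in Wild Type cells, at 1.385 times (1.13 to 1.71) the free level. *dpy-30* was depleted from cells in both libraries, at 0.697 times (0.607 to 0.800) in the mutants and 0.604 times (0.535 to 0.684) in Wild Type. Thus 1 of the 8 genes was above the free level and 1 below it in each library, where 13.9% of genes were above and 11.9% below in *spr-5; met-2*, and 12.9% above and 10.9% below in Wild Type. Between the libraries, the free RNA itself held *set-2* at 219.1 CPM in the mutants and 123.4 CPM in Wild Type, *set-16* at 333.6 CPM in the mutants and 230.9 CPM in Wild Type, and *rbr-2* at 179.3 CPM (151.2 to 211) in the mutants and 133.9 CPM (105.5 to 167.6) in Wild Type. *dpy-30* was at 672.2 CPM in the free RNA of the mutants and 890 CPM in that of Wild Type. These 4 genes differed in the same directions as in the cells, and the intervals of *rbr-2* overlapped. *rbbp-5* and *cfp-1* did so too, with overlapping intervals. *wdr-5.1* went the other way than in cells, at 145.6 CPM in the free RNA of the mutants and 123.4 CPM in that of Wild Type, with overlapping intervals. *ash-2* was nearly equal there, at 113.3 CPM in the mutants and 112.8 CPM in Wild Type.

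**Figure D5:**
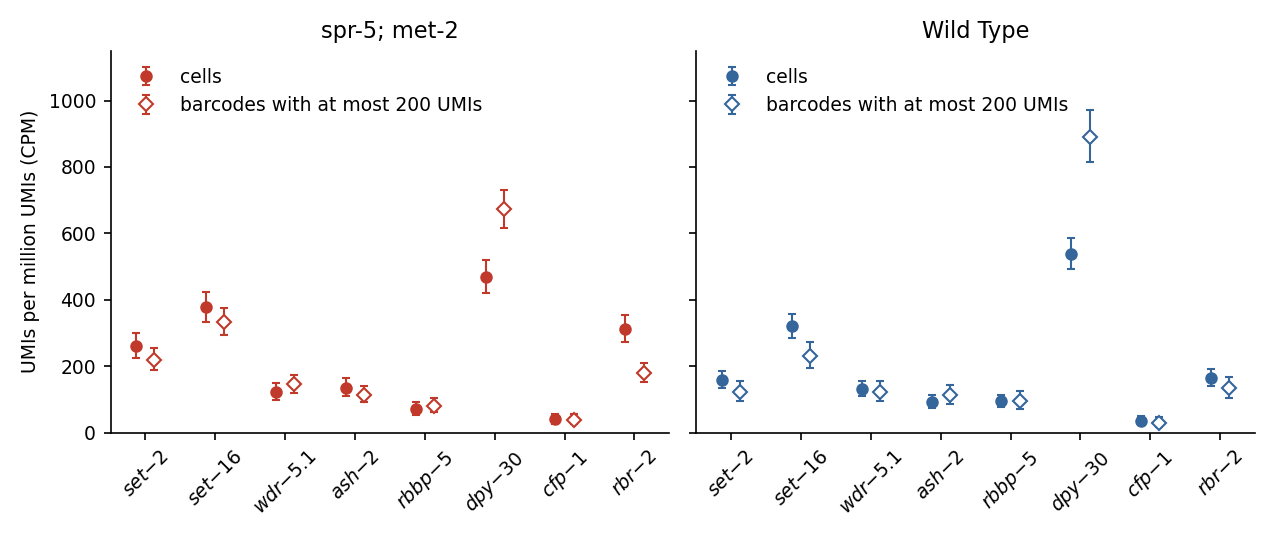
Level of each gene in CPM (linear axis) in cells (filled circles) and in barcodes with at most 200 UMIs (open diamonds) for *spr-5; met-2* (left panel, red) and Wild Type (right panel, blue), with exact Poisson 95% intervals. *rbr-2* lies above its free level in the mutants, 311.5 and 179.3 CPM, and *dpy-30* lies below its free level in both libraries.

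Of 14 further genes that encode H3K4 enzymes, complex subunits and proteins tied to the mark, 4 had an interval above 1, 1 had an interval below 1 and 9 included 1, beside 34% of all genes above and 13.7% below. *set-17* and *wdr-5.2*, with 17 UMIs each, were under the limit of 20 UMIs and are counted among the 14. The median log2 ratio was 0.27, as over all genes, and without the largest Wild Type barcodes it was 0.07, against 0.31 over all genes. In somatic cells and without the largest Wild Type barcodes 4 were above 1 and 0 below. Their sum was 1514 CPM in *spr-5; met-2* and 1158 CPM in Wild Type, a ratio of 1.31 (1.20 to 1.42). Without *set-9* and the mutated gene *spr-5*, the sum over the remaining 12 genes had a ratio of 1.21 (1.11 to 1.32). That is a log2 ratio of 0.28, close to the median of 0.27 over all genes. *swd-2.2*, the WDR82-type subunit particular to the SET1 type of complex, was at 168 CPM in the mutants and 105.6 CPM in Wild Type (123 and 107 UMIs, ratio 1.59, 1.22 to 2.08), a size close to that of *set-2*. The gene overlaps *swd-2.1* by 14 bases. *set-17*, which encodes an H3K4 mono- and dimethyltransferase, had 14 UMIs in the mutants and 3 UMIs in Wild Type, a ratio of 6.46 (1.80 to 35.1), and without the largest Wild Type barcodes 1 UMI was left in Wild Type and the ratio was 9.96 (1.52 to 421.2). The 1 gene below was *spr-5* itself, whose interval, as given above, did not stay below 1. The remaining WDR5 paralogs *wdr-5.2* (4 UMIs in the mutants and 13 in Wild Type) and *wdr-5.3* (14 and 11 UMIs, mutants first), the subunit gene *swd-2.1*, the chromatin cofactor *hcf-1*, the partners of SET-16 *utx-1* and *pis-1*, the methyltransferase *set-30*, and the LSD1-type genes *lsd-1* and *amx-1* had intervals that included 1.

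*set-9* and *set-26* encode nearly identical proteins that bind trimethylated H3K4 and limit its spread. *set-9* had 131 UMIs and 178.9 CPM in *spr-5; met-2* and 19 UMIs and 18.8 CPM in Wild Type, a ratio of 9.54 (5.87 to 16.4) that was far above that of any of the 8 genes. It was 15.5 (6.95 to 43.1), from 6 Wild Type UMIs, without the largest Wild Type barcodes and 17.6 with every cell weighted equally. *set-26* had 342 UMIs and 467.2 CPM in the mutants and 341 UMIs and 336.6 CPM in Wild Type, a ratio of 1.39 (1.19 to 1.62), which was 1.67 (1.37 to 2.04) without the largest Wild Type barcodes. Under median-of-ratios scaling the ratio of *set-26* was 1.15 and its interval included 1 (0.991 to 1.345). For each *set-26* UMI there were 0.383 *set-9* UMIs in the mutants and 0.0557 in Wild Type, a quotient of 6.875 (4.11 to 12.0). *set-9* was higher in all 5 compared clusters, with 13 UMIs in mutant and 4 in Wild Type hypodermis-like cells, 8 and 1 in body wall muscle-like cells, 13 and 0 in other mesoderm-like cells, 23 and 3 in cluster 4, and 13 and 8 in cluster 10, mutants first in each. Reads common to the 2 copies could be split or dropped by the counting, so both levels are uncertain.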

How the data were processed

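Members and gene lists were chosen with earlier results of these data known. The deposited files hold raw UMI counts per gene and barcode, which came from 10x 3' libraries and which the authors produced in Cell Ranger 3.0.2 against build ce11. Per the labels Seurat was then used, with no version given. Cells were the 686 and 219 barcodes with the most UMIs, the numbers in the sample titles, mutants first, and 3 mutant barcodes were tied at the limit. Counts were clustered in Scanpy 1.11.5 (Python 3.11.15, 2000 variable genes, 20 components, 15 neighbours, Leiden resolution 1.0, all H3K4 genes left out). A cluster was named when 3 or more markers with at least 5 UMIs were at least 2 times enriched and outnumbered those of the next tissue. They also had to be more than 1.5 times as many, or at least 2 had to be among the 10 most enriched genes. No other tissue could have more markers among those 10 genes. A cluster with none of its markers there and with shallow cells stayed without a name. Scrublet called 3 mutant and 2 Wild Type doublets, which were kept, a number too low to say that the caller worked. Ratios are mutant over Wild Type with exact conditional binomial intervals, CPM values have Poisson and shares Clopper-Pearson intervals, from scipy 1.17.1. Named genes are the 8 members, the 14 other H3K4 genes and the 3 genes most correlated with the summed members. Coordinates come from Ensembl release 115, which held 20105 of the 20191 identifiers. The interval code was checked on simulated counts.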

Additional observations from a re-analysis of the deposited data

Results flagged for a closer look

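Signal outside the cells was found in both libraries. In *spr-5; met-2* the barcodes with at most 200 UMIs held 1432 UMIs of the 8 genes, and the barcodes above that limit that were not cells held 1230. In Wild Type the same counts were 987 and 180. All are above the 3 counts that a count of 0 allows, and the mutant count between the limit and the cells, at 1818 CPM, was close to the 1783 CPM of the mutant cells.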

How the results depend on the processing

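With 1 library per genotype, intervals cover counting error, and no replicate could be left out. No paired analysis was possible because each genotype has 1 library. Of the alternatives for single genes, 229 values stayed within the counting interval of the reported ratio, 30 moved outside it and 1 reversed. A ratio was counted as reversed where its interval had left out 1 and it then crossed 1, which among single genes was so for *set-16* alone. Of those for sums and counts, 80 stayed, 19 moved and 2 reversed. Median-of-ratios scaling reversed the sum of the 8 genes (0.966 in all cells, 0.965 in somatic cells) and *set-16* (0.980). Under it the methyltransferases were at 1.11 in all (interval including 1) and 1.10 in somatic cells, the shared core at 0.773 and 0.775, the COMPASS subunits at 0.894 and 0.893 (intervals of both below 1) and the other H3K4 genes at 1.09, and 1544 genes were called higher and 1574 lower, against 2325 and 936. With every cell weighted equally the shared core was at 0.823 in all and 0.825 in somatic cells. With 500 UMIs drawn per cell the methyltransferases were at 1.69 in all and 1.71 in somatic cells, the core in somatic cells at 0.832 and the other H3K4 genes at 1.61. There *wdr-5.1* (1.505, 0.731 to 3.40), *cfp-1* (0.627), *utx-1* (1.38), *pis-1* (1.115) and *set-30* (0.912) crossed 1 with intervals that included 1 before and after. With the compared clusters at equal weights the methyltransferases were at 1.11. With 250 UMIs drawn, 33.5% of mutant and 26.5% of Wild Type cells had a UMI of any of the 8. With free RNA taken at 100 UMIs or fewer, the mutant ratio of cells over free RNA was 1.108. The causes were not tested. The ratios of *rbr-2*, *set-2* and *ash-2* stayed above 1, and those of *dpy-30* and *rbbp-5* below 1, under all 8 alternatives in all cells, but the intervals of *ash-2* (0.972 to 5.87) and *set-2* (0.935 to 3.47) included 1 with 500 UMIs drawn. *cfp-1* and *rbbp-5* are limited by depth.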

Other observations

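Over the 10 profiles made by the 5 compared clusters in each genotype, the genes whose log2 level was most like that of the 8 summed genes were C08F1.6 (Pearson's r = 0.981), *ppm-1.G* (0.967) and *cyl-1* (0.924), among 1714 genes with at least 200 UMIs. The profiles share libraries, clusters and depth, and they are not independent, so the values only describe these libraries.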
